A study of Homo sapiens with 12 samples.

Results

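The carcinoembryonic antigen-related cell adhesion molecule (CEACAM) family was examined in RNA sequencing counts of HT1376, a human bladder cancer cell line. The members were the 10 genes of the count table whose symbol was CEACAM1, CEACAM3, CEACAM5, CEACAM6, CEACAM7, CEACAM8, CEACAM16, CEACAM19, CEACAM20 or CEACAM21. Each symbol matched 1 gene, so the family was 10 of the 60666 genes in the table, and all 10 lie on chromosome 19. Kept for comparison were 14 other CEACAM genes and pseudogenes and 11 pregnancy-specific glycoprotein (PSG) genes, which belong to the same gene cluster.

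A control and a knockout line were sequenced, either untreated or 48 hours after IFNγ was added, which gave 4 groups of 3 libraries. HT1376 CT is a CRISPR/Cas9 control clone that carried a guide RNA to luciferase, and the labels call it wild type. HT1376 FOXP3 KO is a clone in which exon 2 of FOXP3 was targeted by CRISPR/Cas9. The dose stated for IFNγ stimulation of these cells is 100 ng/mL. Both lines were single-cell clones, so the loss of FOXP3 and other differences between the clones cannot be told apart. The libraries are numbered 11, 12 and 13 in every group, and nothing in the labels says that they came from separate cultures, so p-values measure the spread between these libraries.

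CEACAM proteins are cell surface glycoproteins of the immunoglobulin superfamily. CEACAM1 spans the membrane, binds itself and other family members on neighbouring cells, and has long cytoplasmic forms with inhibitory tyrosine motifs that recruit the phosphatases SHP-1 and SHP-2. CEACAM5, which is the tumor marker CEA, and CEACAM6, CEACAM7 and CEACAM8 are held by a lipid anchor instead, CEACAM3 and CEACAM8 are known from granulocytes, and CEACAM16 is secreted in the inner ear. IFNγ is known to raise CEACAM1 in several epithelial cell types through an interferon response element bound by IRF1, and the PSG proteins are secreted relatives made mainly by the placenta.

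The promoters of CEACAM1 and its close relatives were compared first, because they show what the family shares upstream of its start sites and where CEACAM1 differs. RefSeq windows of 300 bases (GRCh38.p14), from 250 bases before the start to 50 bases after it, were found for 8 of the 10 members, of which CEACAM21 had 2. CEACAM16 and CEACAM19 had no window, so their promoters were not searched. The letters GAAA, any 2 bases and GAAA again, the form of an interferon-stimulated response element, were searched on both strands and occurred in 1 of the 9 member windows, that of CEACAM1, against 3.57% of all 35116 windows in the table. The match on the strand of the gene begins 116 bases before the CEACAM1 start. In the stretches of 29 or 30 bases printed here in gene orientation, capitals mark the match in CEACAM1 and the bases of the other genes that align with it.
CEACAM1 (chr19:42528581-42528610, minus strand): tgtagacagaaagGAAAGAGAAAgtaagga
CEACAM7 (chr19:41688380-41688408, minus strand): tatagacaaaaggGAAAGAGGAAgaggga
CEACAM5 (chr19:41708486-41708514, plus strand): tgaaaatagaaggGAAAAAAGAggaggga
CEACAM6 (chr19:41755391-41755419, plus strand): tataaacagaaagGGAAGAGGAggaggga
CEACAM3 (chr19:41796440-41796469, plus strand): tgtagacagaaggGAGAAAGGAAgaagaga
CEACAM8 (chr19:42595029-42595058, minus strand): cacagacagaaaaTAAAGGGAAAggaggga

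Of the 10 marked bases, CEACAM7 shared 9 with CEACAM1, CEACAM8 shared 8, and CEACAM3, CEACAM5 and CEACAM6 shared 7 each. Over the whole 300 bases, identity to CEACAM1 ran from 64.7% for CEACAM8 to 74% for CEACAM7. The forkhead core letters TAAACA, searched on both strands, were in 1 of the 9 member windows, that of CEACAM6, and in 12.3% of all windows. They stand at the left of the CEACAM6 stretch, 137 bases before its start, where CEACAM1 has TAGACA, which differs by 1 letter. The palindromic letters TTCNNNGAA, the form of a gamma-activated sequence, were in 0 of the 9 windows and in 7.66% of all windows. These are matches of letters in a short window, and binding was not measured here.

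The libraries held 4490684 to 39270042 counts. FOXP3 had 0 to 3 counts in each of the 12 libraries, in both lines, so these counts could not check the knockout. The cells carried an epithelial profile, with the summed level of 14 epithelial and urothelial markers between 4388 and 5588 CPM, that is, counts scaled to a fixed library size, in all 12 libraries, although the urothelial marker UPK3A was at 0 in each of them. The summed level of 11 granulocyte and other leukocyte markers was 2.78 to 13.3 CPM, with the neutrophil gene ELANE at 0 in all libraries. CSF3R, the receptor for granulocyte colony-stimulating factor, had 0 counts in the 6 HT1376 CT libraries and a mean of 3.46 CPM in untreated HT1376 FOXP3 KO. CD3E, a T cell gene, was at a mean of 0.772 CPM in untreated HT1376 CT and 0.0335 CPM in HT1376 FOXP3 KO. Of the 8 leukocyte markers tested, 1 was higher and 3 lower in untreated HT1376 FOXP3 KO, and 2 were higher and 3 lower under IFNγ. In each condition 3 of the 8 had a group with 3 or fewer counts in every library. Such genes passed the count filter mainly through the other line, as CSF3R did in untreated cells, which largely fixed the direction of any call. Of the epithelial markers tested, 2 were higher and 4 lower in untreated HT1376 FOXP3 KO, and 1 was higher and 2 lower under IFNγ. Over all genes, 14.0% were called higher and 18.2% lower in untreated cells, and 13.2% higher and 15.7% lower under IFNγ. The part of these marker differences in the results was not tested.

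CEACAM1 was the main CEACAM transcript of HT1376 CT. It took 41816 counts over the 12 libraries, CEACAM19 took 1154, CEACAM6 took 61, CEACAM5 took 11 and CEACAM7 took 9. CEACAM3 had 2 counts, CEACAM8 and CEACAM20 had 1 each, and CEACAM16 and CEACAM21 had 0 in every library. The limit that a count of 0 allows, taken as 3 counts, was 0.0764 CPM in the deepest library and 0.668 CPM in the shallowest, and covers counting error only. The granulocyte genes CEACAM3 and CEACAM8 and the lipid-anchored CEACAM7 were thus at or under 3 counts in each library. CEACAM5 exceeded that in 1 library, with 7 counts in HT1376 CT under IFNγ (replicate 13). Only CEACAM1, CEACAM19 and CEACAM6 had the total of 10 counts required for a test in each of the 4 comparisons of 2 groups.

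The levels of CEACAM1, in CPM normalized by TMM over the 12 libraries, separated the lines without overlap. In untreated HT1376 CT they were 225, 291 and 415.5 CPM in replicates 11, 12 and 13. Under IFNγ they were 404, 510.5 and 648 CPM. In untreated HT1376 FOXP3 KO they were 0.645, 1.97 and 3.69 CPM, and under IFNγ 4.56, 2.99 and 10.1 CPM. Replicate 13 was the highest library in each of the 4 groups, and the lowest HT1376 CT library stood above the highest HT1376 FOXP3 KO library by more than an order of magnitude. In this bulk RNA, fewer cells with the transcript and less transcript per cell cannot be told apart.

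**Figure D1:**
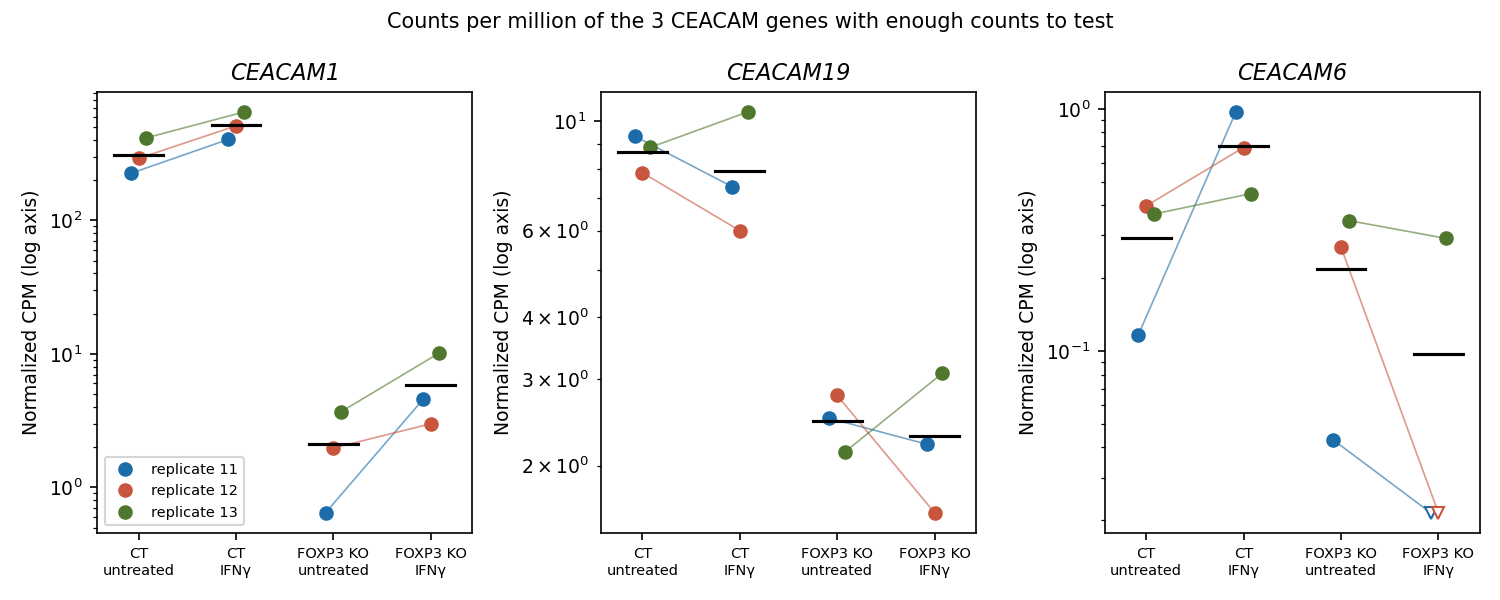
Normalized CPM (log axis) of CEACAM1, CEACAM19 and CEACAM6 in the 12 libraries, by group, with black bars for group means and thin lines joining libraries of 1 line with the same replicate number. Open triangles mark libraries with 0 counts, drawn at the foot of the axis. CEACAM1 fell from group means of 311 and 521 CPM in CT to 2.10 and 5.88 CPM in FOXP3 KO.

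CEACAM19, a transmembrane member whose gene lies 2101044 bases from CEACAM1, was at 9.34, 7.87 and 8.86 CPM in untreated HT1376 CT and at 7.37, 6.001 and 10.4 CPM under IFNγ. In HT1376 FOXP3 KO it was at 2.49, 2.78 and 2.13 CPM untreated and at 2.21, 1.60 and 3.08 CPM under IFNγ. The 6 libraries of each line did not overlap, and IFNγ left the ranges overlapping within each line. CEACAM6 was near the limit of detection throughout, with 2, 5 and 14 counts in untreated HT1376 CT and 10, 3 and 8 under IFNγ. In HT1376 FOXP3 KO it had 1, 3 and 6 counts untreated and 0, 0 and 9 under IFNγ. Its groups overlapped in untreated cells.

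Levels of different genes were compared as CPM per kilobase of merged exons. In untreated HT1376 CT, CEACAM1 was at 56.2 ± 17.5 CPM per kilobase (SD, n = 3), CEACAM19 at 1.68 ± 0.145 and CEACAM6 at 0.0995 ± 0.0522. In untreated HT1376 FOXP3 KO the order of CEACAM1 and CEACAM19 was not resolved, with CEACAM1 at 0.380 ± 0.276 and CEACAM19 at 0.477 ± 0.0624 CPM per kilobase. CEACAM1 was below CEACAM19 in replicates 11 and 12 (0.117 against 0.482 and 0.356 against 0.537) and above it in replicate 13 (0.667 against 0.412). Under IFNγ, CEACAM1 was above CEACAM19 in the 3 HT1376 FOXP3 KO libraries.

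The share of CEACAM1 in the summed level per kilobase of the 10 members described this shift. It was 95.5%, 97.0% and 97.6% in untreated HT1376 CT and 97.7%, 98.5% and 98.1% under IFNγ. In untreated HT1376 FOXP3 KO it was 17.5%, 36.2% and 54.5%, and under IFNγ 64.5%, 63.6% and 72.4%. The means differed by -60.6 percentage points between the lines in untreated cells and by -31.2 under IFNγ, and IFNγ moved the share by 1.40 points in HT1376 CT and by 30.8 points in HT1376 FOXP3 KO. Without untreated HT1376 CT replicate 11 the shift in HT1376 CT was 0.827 points. With the other CEACAM and PSG genes in the sum, the shift in HT1376 FOXP3 KO was 17.0 points. In these 4 comparisons the groups did not overlap, and each gave p = 0.1 in a two-sided exact permutation test (0.1 after Benjamini-Hochberg adjustment over the 4), the smallest that 3 against 3 libraries allow. The summed level of the other 9 members was 1.39 to 2.32 CPM per kilobase in HT1376 CT and 0.310 to 0.694 in HT1376 FOXP3 KO.

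**Figure D2:**
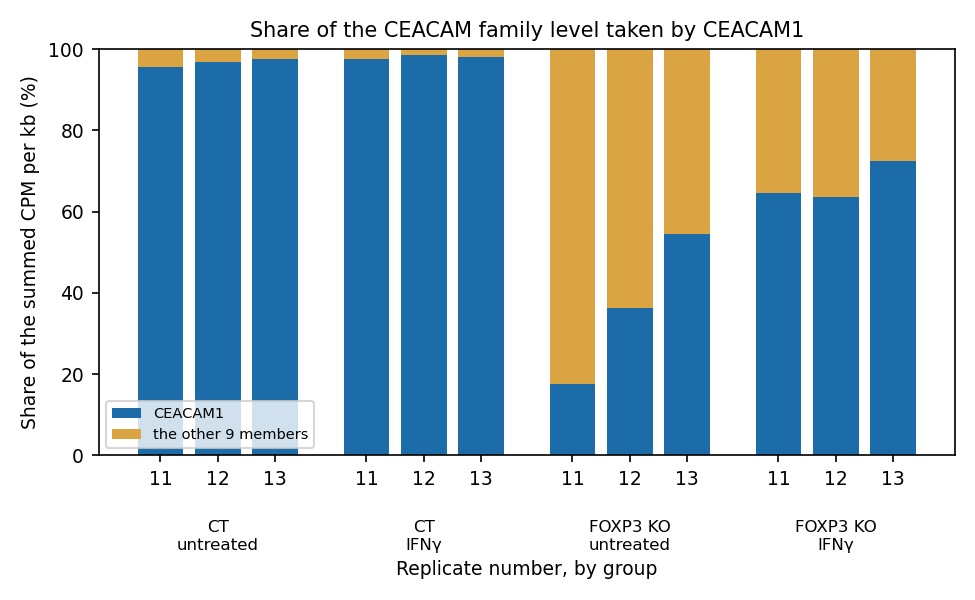
Share (percent, from 0 to 100) of the summed CPM per kilobase of the 10 CEACAM members that came from CEACAM1 (blue) and from the other 9 members (ochre), 1 bar per library. CEACAM1 holds 95.5% or more in each CT library and 17.5% to 72.4% in the FOXP3 KO libraries.

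To examine which CEACAM genes depended on the line, HT1376 FOXP3 KO was compared with HT1376 CT in each condition with the quasi-likelihood test of edgeR, and p-values were adjusted over all genes tested. CEACAM1 and CEACAM19, 2 of the 3 members tested, were lower in the knockout line in both conditions, and none was higher. Among all genes tested, 18.2% were lower and 14.0% higher in untreated cells, and 15.7% were lower and 13.2% higher under IFNγ, so that a call in these comparisons is common in itself. In untreated cells the log2 fold change of CEACAM1 was -7.24 (SE 0.47, edgeR adjusted p = 1.1e-06), which is 152-fold. Under IFNγ it was -6.35 (SE 0.39, adjusted p = 6.6e-07), or 81.4-fold. HT1376 FOXP3 KO replicate 13, the library with the most CEACAM1, set the lower end of both differences: without it they were -8.02 in untreated cells and -7.01 under IFNγ.

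CEACAM19 was lower by a log2 fold change of -1.81 (SE 0.23, edgeR adjusted p = 0.000154) in untreated HT1376 FOXP3 KO, or 3.52-fold, and of -1.73 (SE 0.33, adjusted p = 0.00237) under IFNγ. CEACAM6 had log2 fold changes of -0.48 (SE 0.93, adjusted p = 0.738) untreated and -2.32 (SE 1.09, adjusted p = 0.140) under IFNγ, and did not pass the test in either. Without HT1376 FOXP3 KO replicate 13, which held all 9 of the counts in its group, the second value was -5.98 (adjusted p = 0.0334). No count of CEACAM6 then remained in that group. The gene met the count filter through HT1376 CT alone and could only be called lower, so this call adds no support. Median log2 fold changes over the 3 members tested were -1.81 and -2.32, beside -0.02 and 0.02 over all genes. With 3 genes each median is the value of a single gene. That gene was CEACAM19 in untreated cells and CEACAM6, which was not called, under IFNγ.

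To examine the response of the family to IFNγ, treated and untreated libraries were compared within each line. CEACAM1 was higher under IFNγ in each same-numbered pair of HT1376 CT libraries, by 1.79-fold in replicate 11, 1.75-fold in replicate 12 and 1.56-fold in replicate 13. In HT1376 FOXP3 KO the ratios were 7.06, 1.52 and 2.73. Its mean level in treated HT1376 FOXP3 KO remained at 5.88 ± 3.72 CPM (SD, n = 3), below the 311 ± 96.7 CPM of untreated HT1376 CT.

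Without pairing of the libraries, CEACAM1 did not pass the test in either line. Its change on the log2 scale in HT1376 CT was 0.77 (SE 0.21, edgeR adjusted p = 0.0653), against 1.55 (SE 0.60, adjusted p = 0.760) in HT1376 FOXP3 KO. Libraries with the same number deviated together, and with the number as a replicate block the change was 0.78 (adjusted p = 4.7e-32) in HT1376 CT and 1.63 (adjusted p = 7.7e-09) in HT1376 FOXP3 KO. On simulated data, drawn without any shared deviation of same-numbered libraries, this fit gave more false calls in HT1376 CT than the threshold allows. The unpaired fits also exceeded the threshold on simulated data, to a lesser degree. When edgeR's bias-adjusted deviance was used together with the block, a setting added after the values were seen, it was 0.78 (adjusted p = 2.4e-06) and 1.62 (adjusted p = 0.00101). By that rule 8.51% of all genes rose and 8.29% fell with IFNγ in HT1376 CT, and 3.29% rose and 0.970% fell in HT1376 FOXP3 KO. The unpaired value in HT1376 FOXP3 KO was 0.92 without IFNγ-treated replicate 13 and 2.29 without untreated replicate 13. The unpaired value in HT1376 CT also depended on single libraries, since the adjusted p was 0.0177 without untreated replicate 13 and 0.0284 without IFNγ-treated replicate 11.

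None of the 3 members tested was called with IFNγ by the unpaired edgeR test, where 3.53% of all genes rose and 1.82% fell in HT1376 CT and 0.978% rose and 0.00414% fell in HT1376 FOXP3 KO. At an unadjusted p under 0.05, the count was 1 in each line, which was CEACAM1, and DESeq2 called 1 in HT1376 CT, with an adjusted p of 0.0108 for CEACAM1, and 0 in HT1376 FOXP3 KO. CEACAM19 had log2 fold changes of -0.08 (SE 0.23, adjusted p = 0.918) and -0.05 (SE 0.32, adjusted p = 0.999), whose signs changed when single libraries were left out. CEACAM6 had log2 fold changes of 1.22 (SE 0.75, adjusted p = 0.457) and -0.74 (SE 1.32, adjusted p = 0.999).

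The difference between the lines in their response to IFNγ was tested as an interaction over the 12 libraries, where 0.00360% of all genes were called higher and 0.108% lower. For CEACAM1 the response was larger in HT1376 FOXP3 KO by 0.87 on the log2 scale (SE 0.62, adjusted p = 0.906), a difference smaller than its spread allows to be resolved. It was 0.24 without IFNγ-treated and 1.71 without untreated HT1376 FOXP3 KO replicate 13, and 0.39 without untreated HT1376 FOXP3 KO replicate 11. None of the 4 members tested was called by edgeR, 1 had an unadjusted p under 0.05 and DESeq2 called 0. That member was CEACAM5, whose 11 counts lay in 3 libraries. The interaction was 0.05 (SE 0.39, adjusted p above 0.99) for CEACAM19 and -1.86 (SE 1.44, adjusted p = 0.918) for CEACAM6. The replicate block changed none of these 3 calls.

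The PSG genes lie next to the CEACAM genes on chromosome 19, and 10 of the 11 had at least 1 count. PSG1 was at 12.1, 17.9 and 24.3 CPM in untreated HT1376 CT and 5.14, 8.54 and 11.7 CPM under IFNγ. In HT1376 FOXP3 KO it was at 4.04, 2.42 and 6.34 CPM untreated and 2.81, 1.71 and 4.18 CPM under IFNγ. Each same-numbered pair was lower under IFNγ, with ratios of 0.423 to 0.484 in HT1376 CT and 0.660 to 0.708 in HT1376 FOXP3 KO. The direction was thus opposite to that of CEACAM1 in all 6 pairs.

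Of the 8 PSG genes tested, 4 were lower in HT1376 FOXP3 KO in both conditions, namely PSG1, PSG2, PSG8 and the pseudogene PSG10P. None was higher. Over all genes, 18.2% were lower in untreated cells and 15.7% under IFNγ. In untreated cells 2 PSG genes were called without HT1376 CT replicate 12 or 13 or HT1376 FOXP3 KO replicate 11. PSG1 had a log2 fold change of -2.06 (SE 0.34, edgeR adjusted p = 0.000796) in untreated cells and -1.46 (SE 0.38, adjusted p = 0.0149) under IFNγ, where the adjusted p was 0.102 without HT1376 CT replicate 13. The values were -1.42 (adjusted p = 0.00669) and -1.95 for PSG2 (adjusted p = 0.0123). They were -1.65 (adjusted p = 0.0214) and -2.65 for PSG8 (adjusted p = 0.00429), and the first of these calls was lost when any 1 of 4 libraries was left out, HT1376 CT replicates 12 and 13 and HT1376 FOXP3 KO replicates 11 and 13 (adjusted p of 0.0513 to 0.0990). PSG10P had 20 counts in each HT1376 CT group and 0 in both HT1376 FOXP3 KO groups, where 0 counts allow up to 0.0580 CPM untreated and 0.0544 CPM under IFNγ. It met the count filter through HT1376 CT alone, so it could only be called lower, and its calls add no support.

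PSG9 had log2 fold changes of -1.11 (adjusted p = 0.0922) in untreated cells and -0.94 (adjusted p = 0.169) under IFNγ, and with the replicate block the first was -1.15 (adjusted p = 0.00507), or -1.05 (adjusted p = 0.0120) with bias-adjusted deviance. PSG6 went the other way in its means, with 1.26 ± 0.752 CPM in untreated HT1376 CT and 2.43 ± 1.46 in untreated HT1376 FOXP3 KO, and did not pass the test. PSG3 was at 0.322 and 0.329 CPM in these groups and PSG11 at 0.739 and 0.395 CPM, again without a call. Median log2 fold changes over the 8 PSG genes, with PSG10P among them, were -1.27 untreated and -1.36 under IFNγ, beside -0.02 and 0.02 over all genes.

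**Figure D3:**
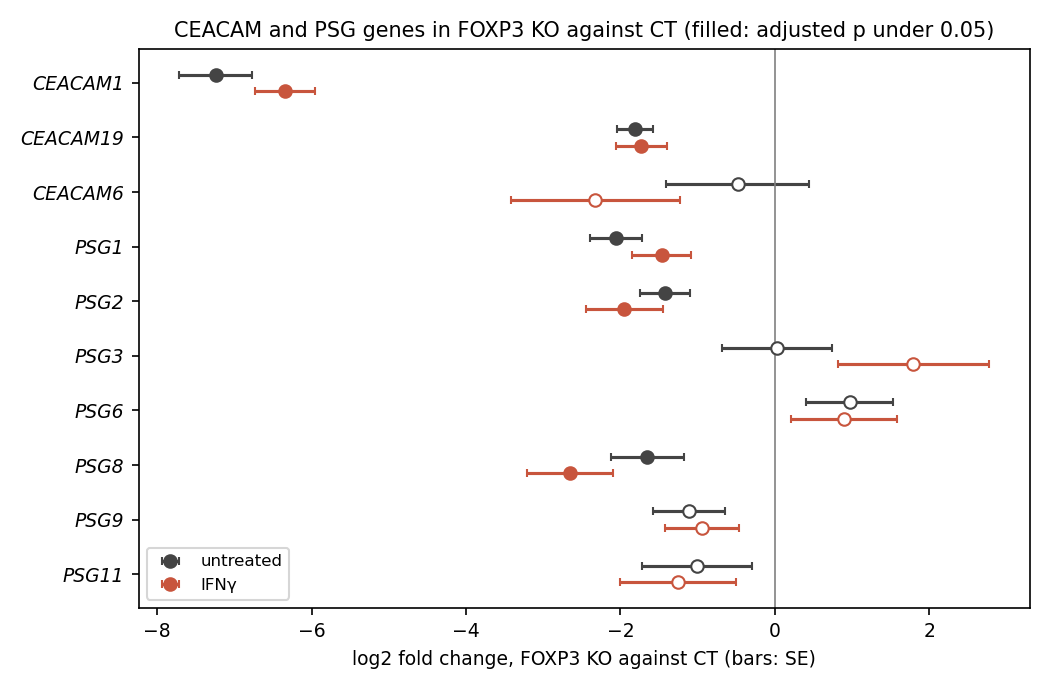
Log2 fold change of FOXP3 KO against CT, with bars for the standard error, for the 3 CEACAM members and 7 PSG genes that were tested and had counts in both lines, untreated (grey) and under IFNγ (red). Filled points passed the edgeR test at an adjusted p under 0.05. CEACAM1 lies at -7.24 and -6.35, CEACAM19 and the called PSG genes between -1.42 and -2.65, and PSG3 and PSG6 at or above 0 without a call.

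With IFNγ, none of the PSG genes tested was called in either line (8 tested in HT1376 CT and 7 in HT1376 FOXP3 KO), with 1 and 0 at an unadjusted p under 0.05. DESeq2 called 1 in HT1376 CT and 0 in HT1376 FOXP3 KO. For PSG1 the log2 fold change was -1.06 (SE 0.31, edgeR adjusted p = 0.0833) in HT1376 CT and -0.50 (SE 0.40, adjusted p = 0.999) in HT1376 FOXP3 KO. With the replicate block the first was -1.09 (adjusted p = 2.1e-09), with the block and bias-adjusted deviance -1.08 (adjusted p = 0.000192), and it was -1.28 (adjusted p = 0.0477) without untreated HT1376 CT replicate 11. Among the 14 other CEACAM genes and pseudogenes, 3 or fewer were tested in each comparison of 2 groups and none was called by edgeR, with 1 at an unadjusted p under 0.05 with IFNγ in each line and 0 between the lines. The pseudogene CEACAMP11 had 6 and 4 counts in the untreated HT1376 CT and HT1376 FOXP3 KO groups and 18 and 23 under IFNγ. CEACAM4 and CEACAM18 had no count in any library. Several of these genes are near copies of each other, and how the counting treated reads that match more than 1 gene is not stated, so low counts in PSG genes and pseudogenes are uncertain.

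The neighbourhood of CEACAM1 was then described. CEACAM1 spans chr19:42507304-42561234 on the minus strand (GRCh38, GENCODE 44) and has 15 annotated transcripts, which gene counts do not tell apart. LIPE-AS1, an antisense RNA that spans the whole of CEACAM1 on the plus strand, had 145 counts over the 12 libraries. It was at 1.11, 0.795 and 0.893 CPM in untreated HT1376 CT and 0.215, 0.269 and 0.230 CPM in untreated HT1376 FOXP3 KO. Its log2 fold change was -1.96 (adjusted p = 0.0188) untreated and -1.45 (adjusted p = 0.115) under IFNγ. The first call was lost on leaving out HT1376 CT replicate 11 or 13 or HT1376 FOXP3 KO replicate 11 or 13 (adjusted p of 0.0530 to 0.0683). Whether counting used strand is not stated, so reads of CEACAM1 and LIPE-AS1 cannot be told apart with certainty.

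Of 24 protein-coding genes within 500 kb of CEACAM1, 19 were tested in untreated cells and 8 of them were lower in the knockout line. Under IFNγ 5 of 20 were lower, and none was higher in either condition. PSG1 and PSG8, already counted among the PSG genes, were lower in both conditions. Under IFNγ, TMEM145 had 14 counts in HT1376 CT and 1 in HT1376 FOXP3 KO, and LIPE had 51 and 3. These 2 genes met the count filter through HT1376 CT alone there, so they could only be called lower, and those calls add no support. Over all genes, 18.2% were lower in untreated cells and 15.7% under IFNγ. Without HT1376 CT replicate 13 the counts of lower neighbours were 4 and 3. The median log2 fold change was -0.74 and -0.69, beside -0.02 and 0.02 over all genes. POU2F2, which encodes the transcription factor OCT2, was at 15.9 to 17.7 CPM in untreated HT1376 CT and 0.288 to 0.645 CPM in HT1376 FOXP3 KO, with a log2 fold change of -5.13 (adjusted p = 3.6e-07), and of -4.44 (adjusted p = 1.3e-06) under IFNγ. LIPE, which encodes hormone-sensitive lipase and lies 79916 bases from CEACAM1, had log2 fold changes of -3.76 (adjusted p = 0.000402) and -4.56 (adjusted p = 0.00400). Its counts were low, with 127 in untreated HT1376 CT and 7 in untreated HT1376 FOXP3 KO, and the values were -4.56 in untreated cells without HT1376 FOXP3 KO replicate 11 and -6.97 under IFNγ without HT1376 FOXP3 KO replicate 13.

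**Figure D4:**
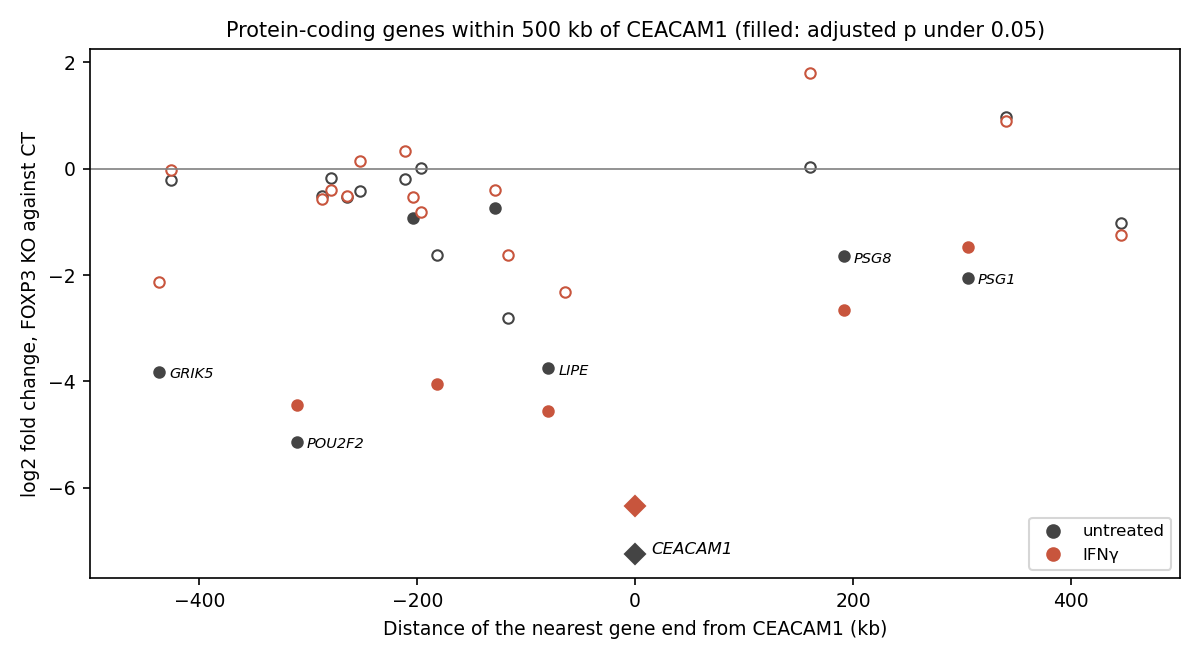
Log2 fold change of FOXP3 KO against CT for the tested protein-coding genes within 500 kb of CEACAM1, by the distance (kb) of their nearest end from CEACAM1, untreated (grey) and under IFNγ (red), with CEACAM1 as diamonds at 0. Filled points passed the edgeR test at an adjusted p under 0.05. The called neighbours all lie below 0, and 11 of 19 untreated and 15 of 20 under IFNγ were not called.

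GRIK5, a glutamate receptor subunit gene, was also among those lower in untreated cells (edgeR adjusted p = 0.0403). It had 25 counts in untreated HT1376 CT and 1 in untreated HT1376 FOXP3 KO, so it met the count filter through HT1376 CT alone. Under IFNγ it was not called (adjusted p = 0.1405). In each condition 2 of the neighbours tested had a group with 3 or fewer counts in each library. Other near neighbours also had few counts. CNFN had 12 counts in untreated HT1376 CT and 1 in HT1376 FOXP3 KO, and CXCL17 had 3 and 0. On the other side, CEACAM8 had 1 count in all libraries together, and PSG3 and PSG8 followed. With IFNγ, none of the neighbours was called in either line by edgeR (20 and 17 tested), with 5 and 1 at an unadjusted p under 0.05. DESeq2 called 1 higher and 3 lower in HT1376 CT and 0 in HT1376 FOXP3 KO. The block with bias-adjusted deviance called 0 higher and 4 lower in HT1376 CT, beside 8.29% of all genes lower, and 0 higher and 1 lower in HT1376 FOXP3 KO, beside 0.970%.

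Genes whose products bind CEACAM1 or act below it were examined next. Of 23 such genes, 2 of 22 tested rose and 1 fell with IFNγ in HT1376 CT, beside 3.53% and 1.82% of all genes. None of 20 was called in HT1376 FOXP3 KO, where 0 had an unadjusted p under 0.05 and DESeq2 called 0. TLR4, the lipopolysaccharide receptor that CEACAM1 is known to bind, rose by a log2 fold change of 2.57 (SE 0.37, adjusted p = 0.00150) in HT1376 CT, from a mean of 3.20 to 18.3 CPM. It had 4 counts in untreated HT1376 FOXP3 KO and 5 under IFNγ, over 3 libraries each. EGFR, the epidermal growth factor receptor gene, also rose, and TPM1, which encodes a tropomyosin, fell. Without HT1376 CT replicate 13 of either condition, 1 gene of the list was called higher and 0 lower. With the block and bias-adjusted deviance, by which 8.51% of all genes rose and 8.29% fell in HT1376 CT, 4 were called higher and 8 lower there, and 2 higher and 2 lower in HT1376 FOXP3 KO, where 3.29% of all genes rose and 0.970% fell.

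Between the lines, 5 of 21 genes of this list were higher and 10 lower in untreated HT1376 FOXP3 KO, beside 14.0% and 18.2% of all genes. Under IFNγ 3 of 22 were higher and 8 lower, beside 13.2% and 15.7% of all genes. The median log2 fold changes of the list were -0.52 and -0.33. TLR4 was lower, with log2 fold changes of -5.28 (adjusted p = 0.000397) and -7.44 (adjusted p = 4.7e-06). Leaving out single HT1376 FOXP3 KO libraries moved these values, to -8.91 without replicate 11 and -4.68 without replicate 13 in untreated cells, and to -9.07 and -6.65 under IFNγ. HAVCR2, which encodes the CEACAM1 ligand TIM-3, had 39 counts in untreated HT1376 CT and 0 in HT1376 FOXP3 KO. TLR4 in both conditions and HAVCR2 in untreated cells met the count filter through HT1376 CT alone. In these comparisons they could only be called lower. LYN, a kinase that phosphorylates CEACAM1, was lower in both conditions, and PXN, which encodes paxillin, was higher in both.

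The known regulators of CEACAM1 transcription and splicing were taken as a list of 19 genes. With IFNγ, 5 of 18 tested rose in HT1376 CT and 1 fell, beside 3.53% and 1.82% of all genes. In HT1376 FOXP3 KO 2 rose, beside 0.978% of all genes. The gene that fell was USF2, whose call was lost without untreated replicate 11, 12 or 13 or IFNγ-treated replicate 12 or 13. IRF1, the factor of the interferon response element, rose by 3.83 (SE 0.11, adjusted p = 1.7e-09) in HT1376 CT, to a mean of 879 CPM, and by 2.91 (SE 0.11, adjusted p = 6.9e-07) in HT1376 FOXP3 KO, to 378 CPM. JAK2, a kinase of the IFNγ receptor, rose by 1.36 (adjusted p = 9.1e-05) in HT1376 CT. The fold rise of IRF1 was smaller in HT1376 FOXP3 KO by 0.93 on the log2 scale (SE 0.15, interaction adjusted p = 0.0171), a call lost on leaving out any 1 of 8 of the 12 libraries, where the difference ranged from -0.92 to -0.82 over the 12 omissions. Of 15 IFNγ response genes, 15 rose in each line, led by GBP5 and HLA-DRA in HT1376 CT and by IDO1 and HLA-DRA in HT1376 FOXP3 KO. Their median log2 fold change was 7.41 in HT1376 CT and 4.05 in HT1376 FOXP3 KO. Among them, 1 in HT1376 CT and 2 in HT1376 FOXP3 KO had a group with 3 or fewer counts in every library. This list was chosen with earlier results of these data known, so 15 of 15 is no independent test. By the interaction test 5 of the 15 rose less in HT1376 FOXP3 KO and 0 rose more, beside 0.108% and 0.00360% of all genes. Under IFNγ 12 of the 15 were lower in HT1376 FOXP3 KO and 1 was higher, beside 15.7% and 13.2% of all genes.

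Between the lines, 7 of 18 regulators were lower and 2 higher in untreated HT1376 FOXP3 KO, beside 18.2% and 14.0% of all genes. Under IFNγ 5 were lower and 3 higher, beside 15.7% and 13.2% of all genes. SOX9, a transcription factor known to act on CEACAM1, was among those lower in both. Its level was 119 ± 16.5 CPM in untreated HT1376 CT and 144 ± 14.4 under IFNγ, against 2.44 ± 1.24 and 2.94 ± 1.12 in HT1376 FOXP3 KO. The log2 fold changes were -5.68 (SE 0.32, adjusted p = 3.6e-07) and -5.60 (SE 0.25, adjusted p = 7.9e-08). Members of the IFNγ receptor pathway were also lower, with log2 fold changes for IFNGR2 of -1.22 (adjusted p = 9.9e-05) and -1.28 (adjusted p = 0.000125), and for JAK2 of -1.06 (adjusted p = 0.000261) and -1.70 (adjusted p = 1.0e-05). JAK1 and SP3 were higher in both conditions.

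The profile of CEACAM1 over the 12 libraries was compared with that of 15473 genes of at least 1 CPM, as the root mean square difference of log2(CPM + 1) values centred on each gene. The 5 nearest were SLC12A7 (0.53), LINC00707 (0.56), SEMA3D (0.59), AXL (0.60) and DOCK10 (0.61), all high in HT1376 CT and low in HT1376 FOXP3 KO. AXL, a receptor kinase gene that also lies on chromosome 19, had means of 156 and 121 CPM in HT1376 CT and 0.572 and 0.846 CPM in HT1376 FOXP3 KO. SLC12A7, a potassium chloride cotransporter gene, had means of 191 and 280 CPM against 2.79 and 4.47 CPM, higher under IFNγ in both lines as CEACAM1 was. Among the relatives of CEACAM1, CEACAM19 ranked 1127 (2.64), PSG1 1140 (2.64) and PSG2 1262 (2.69). This measure is not scaled for the size of a change, so genes at low levels in HT1376 CT cannot come near CEACAM1 by it.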

How the data were processed

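RNA was sequenced from the 12 libraries (Trizol, rRNA depletion, NovaSeq, paired ends). The deposited values are raw counts per gene, which the authors made by removing Mycoplasma reads with Kraken, aligning to GRCh38 with STAR (version 2.7.11a in the submitters' processing notes) and counting with htseq-count. Strand setting and treatment of multiply mapped reads are not given in the sources used here. Totals were 4490684 to 39270042 counts. Genes with at least 10 counts over the libraries compared were tested with edgeR 4.0.16 (TMM, quasi-likelihood test, R 4.3.3), with Benjamini-Hochberg adjustment over all genes tested and a call at an adjusted p under 0.05. CPM used TMM factors over 12 libraries, and lengths were merged exons of GENCODE 44. DESeq2 1.42.0, other filters, scalings and deviances, a replicate block and omission of each library were tried, and the scripts were tested on simulated data. In the simulated data, which held no effect of the replicate number, the share of false calls was above the threshold in the unpaired fits. It was highest for the block with default deviance in HT1376 CT, and lower with bias-adjusted deviance in each blocked fit. The labels do not say what the replicate number marks. Deviations from group means of same-numbered libraries correlated at 0.391 to 0.435 within HT1376 CT, 0.474 to 0.633 within HT1376 FOXP3 KO and 0.147 to 0.378 between lines, so the numbers were taken to pair the libraries. Genes named were the members, relatives, neighbours, called genes of the lists with the largest changes, markers at 0 in every library, and the 5 genes most like CEACAM1. Members and lists were chosen with earlier results of these data known. Some genes of the lists are counted but not reported here by name.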

Additional observations from a re-analysis of the deposited data

Results flagged for a closer look

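The response to IFNγ differed between the lines, by the interaction test of edgeR over the 12 libraries, for 3 of the genes named. IRF1 rose less in HT1376 FOXP3 KO, with an interaction of -0.93 on the log2 scale (SE 0.15, adjusted p = 0.0171), and the call was lost on leaving out any 1 of 8 libraries. GBP2, an interferon-induced GTPase gene, had an interaction of -4.98 (SE 0.25, adjusted p = 4.5e-08). GBP5, of the same family, had an interaction of -3.13 (SE 0.48, adjusted p = 0.0148), which was lost without IFNγ-treated HT1376 CT replicate 13 or untreated HT1376 FOXP3 KO replicate 11 or 13.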

How the results depend on the processing

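The lower levels of CEACAM1 and CEACAM19 in HT1376 FOXP3 KO kept direction and call under every alternative run, except that a required log2 fold change over 2 under IFNγ left 1 member called lower. CEACAM1 with IFNγ did not keep its side of the threshold. In HT1376 CT its log2 fold change was 0.76 without a filter, 0.78 by DESeq2, 0.78 with the replicate block and 0.78 with the block and bias-adjusted deviance, with 1 member called higher in each. Omission of single libraries gave 0.58 to 1.04 and 0 to 1 member called, with calls without untreated replicate 13 or IFNγ-treated replicate 11. In HT1376 FOXP3 KO it was 1.55 without a filter, 1.63 with the block and 1.62 with the block and bias-adjusted deviance, again with 1 member called higher. The interaction was 0.88 without a filter, with 1 member called higher. Signs of CEACAM19 and CEACAM6 turned where no change was called. CEACAM19 with IFNγ ran from -0.34 to 0.054 in HT1376 CT and from -0.31 to 0.12 in HT1376 FOXP3 KO when single libraries were left out, and was 0.032 with bias-adjusted deviance and 0.059 with that and the block in the latter. Its interaction ran from -0.18 to 0.37, and CEACAM6 in untreated cells from -1.04 to 0.11. With the other CEACAM and PSG genes in the sum, the share of CEACAM1 moved by 6.68 points with IFNγ in HT1376 CT and by 17.0 points in HT1376 FOXP3 KO, and differed by -75.9 points between the lines untreated and -65.6 under IFNγ. Over all genes, calls with IFNγ in HT1376 CT were 1307, and 4530 with the block, 4102 with the block and bias-adjusted deviance, 2248 without a filter and 761 at the lowest omission. In HT1376 FOXP3 KO they were 237, 1334 and 1027 with these blocks. Under IFNγ the lines differed in 7046 genes, of which 2948 passed a log2 fold change over 2. The interaction gave 31, against 294 without a filter, 151 by DESeq2, 336 with the block, 230 with the block and bias-adjusted deviance, 867 with that block within each line and 15 at the lowest omission. The cause of these changes was not tested. Depth limits statements on the 7 members that could not be tested between groups.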
